A study of Mus musculus with 4 samples.

Results

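The data were read for 10 genes of prostaglandin and nitric oxide synthesis, which were taken by name out of the 55421 genes listed in every library. They were the cyclooxygenases Ptgs1 and Ptgs2, the prostaglandin E synthases Ptges, Ptges2 and Ptges3, the prostaglandin D synthase Ptgds, the prostaglandin E2 receptor Ptger4, and the nitric oxide synthases Nos1, Nos2 and Nos3. Prefrontal cortex (PFC) of newborn wild-type C57BL/6 mice (postnatal day 0) was dissociated with papain after the meninges had been peeled off, and the cells were cultured for 10 days. The medium held FGF2 (fibroblast growth factor 2) at 5 ng/mL in the FGF2 group and no added FGF2 in the other, and the labels name no other difference. Total RNA of each culture was sequenced, which gave 2 FGF2 libraries and 2 no FGF2 libraries, and the comparison asks how RNA levels differ with FGF2. The study's methods speak of technical replicates for all bulk samples but those of certain human stages, without naming the mouse cultures. So the p-values measure only the spread between the 2 libraries of a group, which may be technical, and the number of animals is not given in the sources used here.

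Prostaglandins are lipid messengers made on demand from arachidonic acid, which phospholipases cut out of membranes. A cyclooxygenase turns it into prostaglandin H2, and terminal synthases then make prostaglandin E2, prostaglandin D2 and their relatives, which act on receptors of neighbouring cells. Nitric oxide is a gas made from arginine by neuronal (Nos1), inducible (Nos2) and endothelial (Nos3) synthases and acts mainly through soluble guanylyl cyclase. In brain, Ptgs2 and Nos2 are known as genes that cytokines and growth factors can induce in glia, and Ptgs2 also as an activity-dependent gene of excitatory neurons, while Nos1 marks particular inhibitory neurons (IN).

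Total counts on genes were between 9166432 and 10799886 per library, so that 3 counts corresponded to 0.277 to 0.331 CPM (gene counts relative to the TMM-scaled library size), the floor used here. The cultures held RNA of several cell types, and the marker lists moved with FGF2. Of 12 IN markers 11 were lower, of 8 pan-neuronal markers 8 were lower, of 9 astrocyte markers 8 were higher and of 11 oligodendrocyte lineage markers 10 were higher. In such bulk libraries, fewer cells of a type and less RNA per cell cannot be told apart.

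Ptgs2 rose with FGF2, Nos2 was counted in the FGF2 libraries alone, Ptges and Ptgds rose about as far as Nos1 fell, and Ptgs1, Ptges2 and Ptges3 did not pass the test. Of the 10 genes, 8 were tested, and Ptger4 and Nos3 had too few counts. In the edgeR quasi-likelihood test (adjusted p below 0.05 over 17144 genes), 4 of the 8 were higher with FGF2 and 1 was lower, beside 20.7% and 19.9% of all tested genes (40.5% in either direction). Ptgs2 and Nos2 passed the expression filter through their FGF2 libraries only, so for these genes a difference was built into being tested, and the count over the 8 is a description. The calls of the other genes do not have that limit.

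**Figure D1:**
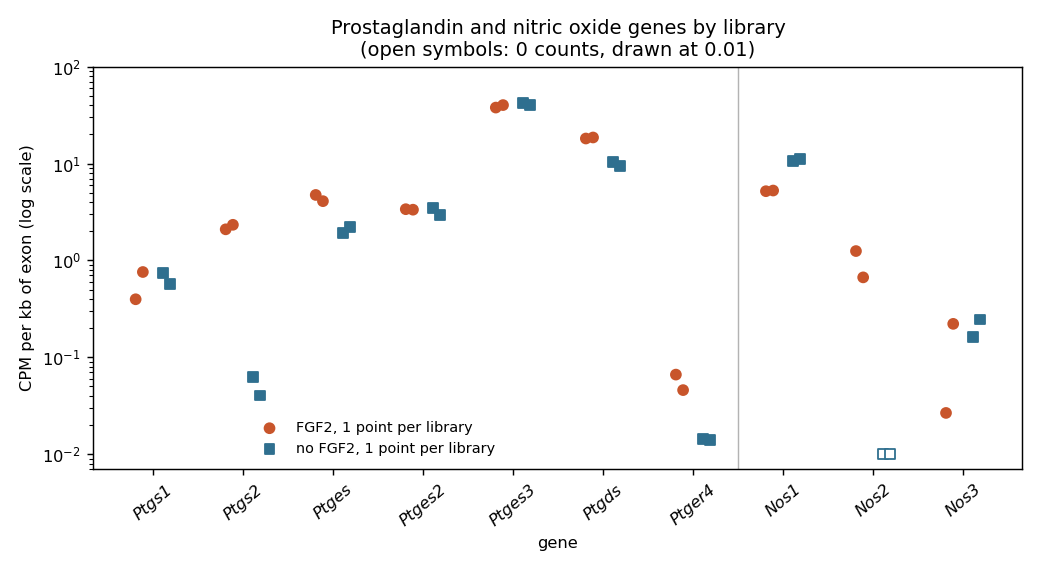
Level of each of the 10 genes as CPM per kb of exon on a log axis, with 1 point per library (circles, FGF2; squares, no FGF2). Ptgs2 stood at 2.21 with FGF2 and 0.0513 without (means of 2 libraries), Nos2 had 0 counts in both no FGF2 libraries (open squares), and Nos1 was the gene whose FGF2 points lay below.

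The bases just upstream of the RefSeq start are shown for the pair of cyclooxygenases, of which only Ptgs2 was called. They are also shown for Ptges, the synthase that rose with Ptgs2. They are 250 bases each, 5′ to 3′ on the strand of the gene, from RefSeq on GRCm38.p6. Capitals mark a match to a searched motif.
Ptgs2, chr1:150099781-150100030, plus strand: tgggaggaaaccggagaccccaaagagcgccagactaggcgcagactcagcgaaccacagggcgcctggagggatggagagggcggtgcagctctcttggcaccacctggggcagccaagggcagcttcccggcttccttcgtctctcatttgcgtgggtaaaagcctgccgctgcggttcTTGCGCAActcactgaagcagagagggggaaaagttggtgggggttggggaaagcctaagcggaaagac
Ptgs1, chr2:36230176-36230425, plus strand: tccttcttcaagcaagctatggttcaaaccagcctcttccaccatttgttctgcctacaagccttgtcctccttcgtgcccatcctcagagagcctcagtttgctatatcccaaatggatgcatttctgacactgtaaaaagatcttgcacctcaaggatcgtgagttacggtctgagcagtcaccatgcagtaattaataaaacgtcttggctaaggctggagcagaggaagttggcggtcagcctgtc
Ptges, chr2:30903298-30903547, minus strand: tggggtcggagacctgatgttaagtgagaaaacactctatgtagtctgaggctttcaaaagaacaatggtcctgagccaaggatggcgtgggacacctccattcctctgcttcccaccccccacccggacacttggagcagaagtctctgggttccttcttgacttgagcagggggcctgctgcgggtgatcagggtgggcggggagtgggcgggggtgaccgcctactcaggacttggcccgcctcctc
Ptgds, chr2:25469762-25469784, minus strand, from 35 to 13 bases before the start: TGACTCAtaaataGGGGGTCTCC
The Ptgds stretch is shorter because 93 of the 250 bases of its upstream window are exonic in the annotation. The whole window lies within the annotated gene, and so does the stretch shown.

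RefSeq entries of 300 bases (250 before and 50 after the start) were found for 8 of the 10 genes, but not for Nos2 and Nos3. The Nos1 entry begins at the first base of an exon that is internal in 4 GENCODE transcripts, so its window is intron, and it was not read. In the other 7 windows both strands were searched. Those of Ptges and Ptgds lie within the annotated gene, which reaches further upstream than the window. At both of these RefSeq starts the first exon of 1 GENCODE transcript begins, and the windows were read. Of the 250 bases before the start, 0 were exonic for Ptges, 93 for Ptgds and 28 for Ptges3. The C/EBP motif TTNCGNAA lay 62 to 69 bases before the Ptgs2 start and is found in 2.47% of all 32851 windows. The core of the cAMP response element, TGACG (20.8% of all windows), lay on the minus strand 14 to 18 bases after the start of Ptgs2 and 12 to 16 bases after that of Ptges3. Ptgds held the AP-1 motif TGANTCA (7.81% of all windows) 29 to 35 bases before its start, followed without overlap by the kB consensus (8.46%) 13 to 22 bases before it. Ptges3 held a kB consensus 78 to 87 bases before its start. The letters of the interferon motif GAAANNGAAA (3.44%), the GAS motif TTCNNNGAA (8.30%) and TATAAA (13.6%) occurred in none of the 7 windows, and those of Ptgs1, Ptges, Ptges2 and Ptger4 held no match at all. These matches are letters in a window and were not related to the measured levels.

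Of the cyclooxygenases, Ptgs2 passed the test and Ptgs1 did not. Ptgs2 (ENSMUSG00000032487, chr1:150100031-150108227, plus strand, mm10), the inducible enzyme known as COX-2, was counted 87 and 105 times in the FGF2 libraries, but 3 and 2 times in the no FGF2 libraries. In CPM these were 9.59 and 10.7 against 0.286 and 0.185. Both no FGF2 libraries were at or below the floor and both FGF2 libraries far above it. The fitted log2 fold change was 5.36 with a standard error (SE) of 0.43 (edgeR adjusted p = 6.7e-34), the 21st highest of the 17144 tested genes. Ptgs2 was among these through its FGF2 libraries only, so the p-value and the rank are descriptions. From the summed counts of 192 and 5, corrected for library size, the ratio was 43.3 with an exact 95% interval of 18.2 to 135, which covers counting error only. The size of the rise is therefore known less well than its direction.

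Ptgs1 (ENSMUSG00000047250, chr2:36230426-36252272, plus strand), the constitutive enzyme COX-1 and in brain mostly a microglial gene, was counted 14 and 29 times in the FGF2 libraries, and 30 and 24 times in the others. Its levels were 1.54 and 2.95 CPM against 2.86 and 2.22 CPM. The groups overlapped, with the widest gap between the FGF2 libraries themselves. The log2 fold change was -0.16 (SE 0.40, edgeR adjusted p = 0.794), and the ratio of summed counts was 0.898 with an exact 95% interval of 0.588 to 1.37. The interval covers counting error only and leaves out the spread between libraries, so a change beyond it is not excluded either.

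Per kb of exon, Ptgs2 made up 84.1% and 75.4% of the cyclooxygenase level in the FGF2 libraries and 7.82% and 6.60% in the no FGF2 libraries. The summed level of the 2 genes was 2.49 and 3.09 CPM per kb with FGF2 and 0.797 and 0.611 without. Thus Ptgs2 was the more abundant cyclooxygenase RNA with FGF2 and Ptgs1 without it. On the log2 scale the ratio of Ptgs2 to Ptgs1 was 1.98 ± 0.53 (SD, n = 2 libraries) with FGF2 and -3.45 ± 0.12 without, a difference of 5.42. An exact two-sided permutation test gave p = 0.333, the smallest that 2 against 2 libraries allow, and 0.333 after adjustment over the 3 ratios compared.

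**Figure D2:**
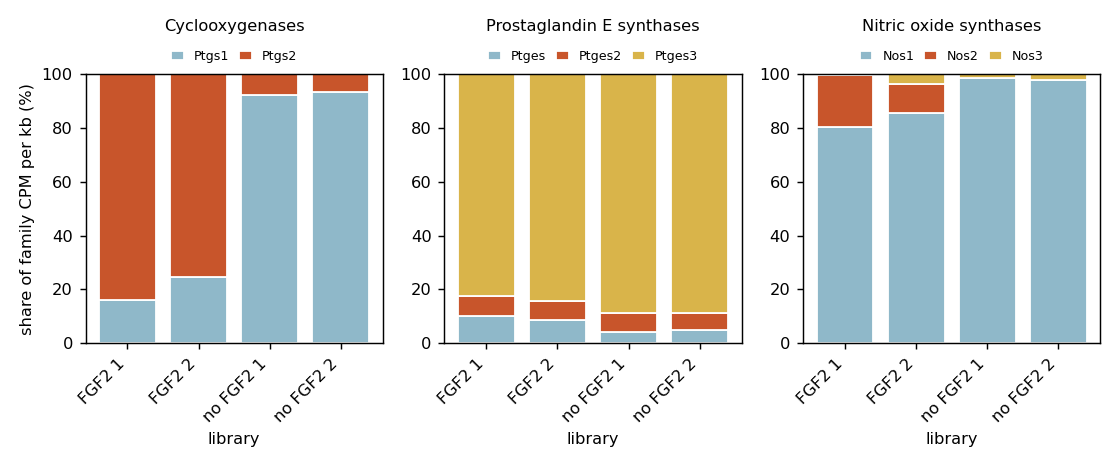
Share of each gene in the summed CPM per kb of its enzyme family, in percent, for each of the 4 libraries (1 bar per library). Ptgs2 filled 75.4% to 84.1% of the cyclooxygenase bar with FGF2 and 6.60% to 7.82% without, Ptges3 filled over 80% of every prostaglandin E synthase bar, and Nos2 appeared with FGF2 only.

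Of the terminal synthases, Ptges and Ptgds rose. Ptges (ENSMUSG00000050737, chr2:30889471-30929863, minus strand), the microsomal prostaglandin E synthase that is usually induced with COX-2, received 169 and 158 counts in the FGF2 libraries against 80 and 95 in the no FGF2 libraries. This came to 17.3 ± 1.81 CPM against 8.19 ± 0.821 CPM (SD, n = 2 each). The groups lay well apart, and FGF2 over no FGF2 was 1.08 on the log2 scale (SE 0.17, edgeR adjusted p = 4.1e-09).

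Ptges2 (ENSMUSG00000026820, chr2:32395896-32405772, plus strand), a second membrane-associated prostaglandin E synthase, received 155 and 166 counts in the FGF2 libraries against 183 and 160 in the others. Its mean levels were 17.0 ± 0.144 CPM and 16.1 ± 1.87 CPM (SD, n = 2 each), the FGF2 values lying between those of the no FGF2 libraries. The log2 fold change was 0.08 (SE 0.15, edgeR adjusted p = 0.722). The log2 ratio of Ptges to Ptges2 per kb was 0.39 ± 0.14 with FGF2 and -0.61 ± 0.31 without (SD, n = 2 each; exact permutation p = 0.333, again the smallest possible). Ptges was thus the higher of the 2 with FGF2 and the lower without.

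Ptges3 (ENSMUSG00000071072, chr10:128058954-128077272, plus strand), the cytosolic synthase that is also the HSP90 co-chaperone p23, had the highest level of the 10 genes per kb of exon in every library. Its levels were 83.8 and 88.9 CPM with FGF2 and 93.0 and 88.6 CPM without, with overlapping groups and a log2 difference of -0.07 (SE 0.07, edgeR adjusted p = 0.445). The pseudogene Ptges3-ps shares a stretch of 480 bases at 100% identity with it and was itself given 174 and 215 counts in the FGF2 libraries (253 and 226 in the others), so the split of reads between them is uncertain. Because Ptges3 made up 82.3% to 88.6% of the summed prostaglandin E synthase level, that sum moved little, from 45.1 and 47.3 CPM per kb without FGF2 to 45.9 and 47.5 with it.

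Ptgds (ENSMUSG00000015090, chr2:25466709-25470046, minus strand), the lipocalin-type prostaglandin D synthase, a secreted protein known from oligodendrocytes and from the meninges, reached 271 and 301 counts in the FGF2 libraries and 180 and 170 in the others. The levels of 29.9 and 30.6 CPM against 17.1 and 15.7 CPM did not overlap, and the libraries of a group lay close together. The log2 fold change was 0.88 (SE 0.13, edgeR adjusted p = 7.2e-11). Beside it, 10 of 11 oligodendrocyte lineage markers rose (10 tested), and their summed level was 1875 to 1887 CPM with FGF2 and 565 to 575 CPM without. Of 8 meningeal and mural markers, 7 were tested, 2 rose and 2 fell, with sums of 63.0 to 67.1 CPM and 51.8 to 52.9 CPM. Those that rose were the mural genes Pdgfrb, which made up most of the sum (47.9 against 28.8 CPM), and Rgs5, and those that fell were the fibroblast collagens Col1a1 and Col1a2 (-2.18 and -1.73 on the log2 scale). The part of these cells in the Ptgds level was not tested.

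Ptger4 (ENSMUSG00000039942, chr15:5206661-5244187, minus strand), the EP4 receptor for prostaglandin E2, was seen 4 and 3 times in the FGF2 libraries and once in each of the others (1 and 1 counts). All 4 libraries were near or below the floor of 3 counts, and no fold is given. Its exons also overlap those of Gm15937 by 1015 bases and of Ttc33 by 82 bases on the other strand, and the strand setting of the counting is not given in the sources used here.

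Of the nitric oxide synthases, Nos1 fell and Nos2 rose. Nos1 (ENSMUSG00000029361, chr5:117781032-117958840, plus strand), the neuronal enzyme, reached 524 and 577 counts in the FGF2 libraries, but 1252 and 1355 in the no FGF2 libraries. Its level was 58.2 ± 0.649 CPM against 122 ± 4.24 CPM (SD, n = 2 each), with tight libraries in each group and no overlap. The log2 fold change was -1.07 (SE 0.07, edgeR adjusted p = 3.5e-49), which leaves 0.476 of the level without FGF2. Nos1 shares stretches of at least 100 bases and 95% identity with 26 other genes. All but one were at most 127 bases long, against 11151 exonic bases in all, and the longest, with the antisense gene Gm26995, had 0 counts in every library.

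The fall of Nos1 stood beside that of neuronal markers. Of the 12 IN markers, which were all tested, 11 fell, their median log2 fold change was -0.98, and their summed level was 786 to 787 CPM with FGF2 against 1371 to 1414 CPM without. Pan-neuronal markers had a median of -0.49 and sums of 2901 to 2953 CPM against 4040 to 4063 CPM. Excitatory neuron (EN) markers had a median of -0.28, with 3 of 6 lower. Over all tested genes the median was -0.00082. How much of the Nos1 difference lies in the number of IN was not tested.

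Nos2 (ENSMUSG00000020826, chr11:78920787-78960254, plus strand), the inducible enzyme, was counted 50 and 29 times in the FGF2 libraries and had 0 counts in both of the others. In CPM the FGF2 libraries were at 5.51 and 2.95. The groups did not overlap, but the FGF2 libraries differed from each other more than those of Nos1 or Ptgds did. Against a floor of 3 counts per library in the no FGF2 group, the mean FGF2 level of Nos2 gave a bound of 15.0-fold. This bound leaves out the spread between the FGF2 libraries. The edgeR adjusted p was 2.1e-16, but Nos2 was tested through its FGF2 libraries only, so that value is a description. The fitted log2 fold change depends on the prior count here and is not given.

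Nos3 (ENSMUSG00000028978, chr5:24364810-24384474, plus strand), the endothelial enzyme, was counted 1 and 9 times in the FGF2 libraries, against 7 and 11 times in the others. The groups overlapped, and the ratio of the summed counts of 10 and 18 was 0.627 with an exact 95% interval of 0.258 to 1.43. Its exons overlap those of the antisense gene Gm15587 by 1040 bases (31 and 22 counts in the FGF2 libraries, 32 and 34 in the others) and those of Atg9b by 294 bases, so even these few counts are uncertain. Of 8 endothelial markers, Cldn5 and Tie1 had 0 counts in every library and 3 were tested, of which 1 was higher and 1 lower, and the summed level was 7.83 to 9.92 CPM with FGF2 and 4.95 to 8.50 CPM without.

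Per kb of exon, Nos1 remained the main nitric oxide synthase RNA in every library. Its share was 80.2% and 85.5% with FGF2, where Nos2 made up 19.4% and 10.9%, and 98.5% and 97.9% without FGF2, where Nos2 made up 0%. The summed level of the 3 genes was 6.45 and 6.15 CPM per kb with FGF2 and 10.8 and 11.5 without, so the rise of Nos2 was smaller than the fall of Nos1. The log2 ratio of Nos2 to Nos1 was -2.50 ± 0.65 with FGF2 and -10.01 ± 0.08 without (SD, n = 2 each; exact permutation p = 0.333, the smallest possible), and the latter value is set by the pseudocount of 0.5.

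Because microglia and astrocytes are among the cells that can make Ptgs2 and Nos2 RNA, general markers of both are given beside them. No list of reactive astrocyte genes was read. Of 9 microglia markers, 5 were tested, and Csf1r, Cx3cr1 and C1qb rose. The sum of all 9 was 17.2 to 20.6 CPM with FGF2 and 9.14 to 9.42 CPM without. None of the 9 was at 0 in every library, and Tmem119 was counted 4 and 3 times in the FGF2 libraries and 0 and 4 times in the others. Of 9 astrocyte markers 8 rose, with sums of 12578 to 12708 CPM against 7678 to 7726 CPM. Gfap was the largest single part of these sums, with means of 5793 CPM with FGF2 and 2776 CPM without. The median log2 fold change was 0.96 for the tested microglia markers and 0.42 for the astrocyte markers, against 5.36 for Ptgs2. The cell type that carried Ptgs2 or Nos2 RNA was not tested.

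**Figure D3:**
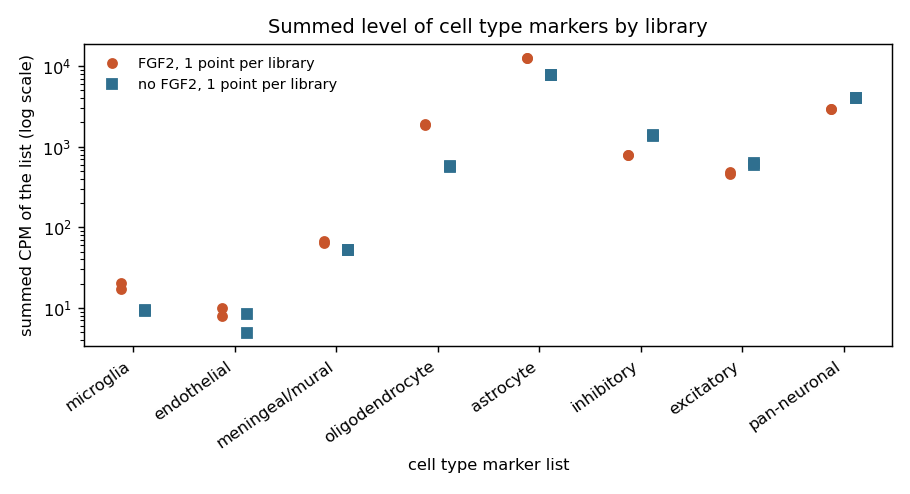
Summed CPM of 8 lists of cell type markers on a log axis, with 1 point per library (circles, FGF2; squares, no FGF2; close points merge). The microglia, meningeal and mural, oligodendrocyte and astrocyte sums were higher in both FGF2 libraries, the IN, EN and pan-neuronal sums were lower in both, and the endothelial sums overlapped.

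Across the 10 genes, the order per kb of exon changed with FGF2. With FGF2 it ran from Ptges3 at 38.9 CPM per kb over Ptgds at 18.3, Nos1 at 5.22, Ptges at 4.41, Ptges2 at 3.36 and Ptgs2 at 2.21 to Nos2 at 0.959 and Ptgs1 at 0.578. Nos2 and Ptgs1 overlapped between libraries, as did Nos3 at 0.124 and Ptger4 at 0.0561 below them. Without FGF2, Ptges3 at 40.9 CPM per kb was followed by Nos1 at 11.0, Ptgds at 9.96, Ptges2 at 3.18, Ptges at 2.08, Ptgs1 at 0.653, Nos3 at 0.204, Ptgs2 at 0.0513 and Ptger4 at 0.0141, and no neighbours in this order overlapped between the 2 libraries. So Ptgds and Nos1 exchanged places, as did Ptges and Ptges2. Of the tested genes, both FGF2 libraries lay above both no FGF2 libraries for Ptgs2, Ptges, Ptgds and Nos2, which holds for 33.6% of all tested genes. They lay below for Nos1, which holds for 33.4%. Ptgs2 and Nos2 were tested through their FGF2 libraries only. Ptger4, which was not tested and was near the floor, also lay above.

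Around the prostaglandin genes stood 24 others of prostanoid supply, synthesis, reception, transport and breakdown. Of these 16 were tested, 5 were higher, 4 were lower and 7 did not pass, with a median log2 fold change of -0.0027 against -0.00082 over all tested genes. These were 31.2% and 25.0% of those tested, beside 20.7% and 19.9% of all genes. The genes of arachidonic acid release were divided. Pla2g4a, the cytosolic phospholipase that supplies cyclooxygenases, rose, from 25 and 26 counts in the no FGF2 libraries to 57 and 75 in the FGF2 libraries (log2 fold change 1.54, SE 0.30, edgeR adjusted p = 1.5e-06), and the calcium-independent Pla2g6 rose from 20.4 to 25.7 CPM (0.34 on the log2 scale, edgeR adjusted p = 0.022). The secreted phospholipase Pla2g5 fell, from 86 and 67 counts in the no FGF2 libraries to 34 and 28 in the FGF2 libraries (-1.13 on the log2 scale, edgeR adjusted p = 1.7e-04). Faah and Mgll, hydrolases that break down endocannabinoids, fell by 0.51 and 0.20 on the log2 scale (edgeR adjusted p = 1.1e-04 and 0.0012). Pla2g6 missed the threshold without FGF2 replicate 2 (0.22 on the log2 scale) or no FGF2 replicate 1 (0.25), and Mgll without no FGF2 replicate 1 (-0.17).

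Among the receptors, Ptger1, the EP1 receptor for prostaglandin E2, showed the largest rise of the tested genes of that list. Its counts were 121 and 144 in the FGF2 libraries and 31 in each of the others, or 14.0 ± 0.924 CPM against 2.91 ± 0.0616 CPM (SD, n = 2 each), and the log2 fold change was 2.26 (SE 0.23, edgeR adjusted p = 4.2e-21). As the strand setting of the counting is not given, the source of the Ptger1 counts is uncertain. Ptger3, the EP3 receptor, differed by -0.03 on the log2 scale (edgeR adjusted p = 0.920). The prostaglandin F receptor Ptgfr differed by -1.22 on that scale, on 7 and 5 counts against 20 and 12 (edgeR adjusted p = 0.0929). The other receptors were not tested. The prostacyclin receptor Ptgir was counted 12 and 9 times in the FGF2 libraries and 0 and 1 times in the others, Ptger2 and Ptgdr had at most 4 and 1 counts in a library, Tbxa2r at most 2, and Ptgdr2 had 0 in every library. Of the EP receptors, Ptger1 alone passed the test, and Ptger4 stayed near the floor.

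Other synthases of the same step gave little signal. Hpgds, the hematopoietic prostaglandin D synthase, was counted 24 and 15 times in the FGF2 libraries and 9 and 22 times in the others (0.51 on the log2 scale, edgeR adjusted p = 0.412), and of the prostaglandin D synthases Ptgds alone passed the test. The thromboxane synthase Tbxas1 and the prostacyclin synthase Ptgis had at most 13 and 8 counts in a library and were not tested. Akr1b3, an aldose reductase with prostaglandin F synthase activity, fell from 38.0 to 27.0 CPM (-0.49 on the log2 scale, edgeR adjusted p = 3.7e-05). The efflux pump Abcc4, which exports prostaglandins, rose from 42.7 to 63.0 CPM (0.56 on the log2 scale, edgeR adjusted p = 1.2e-09).

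**Figure D4:**
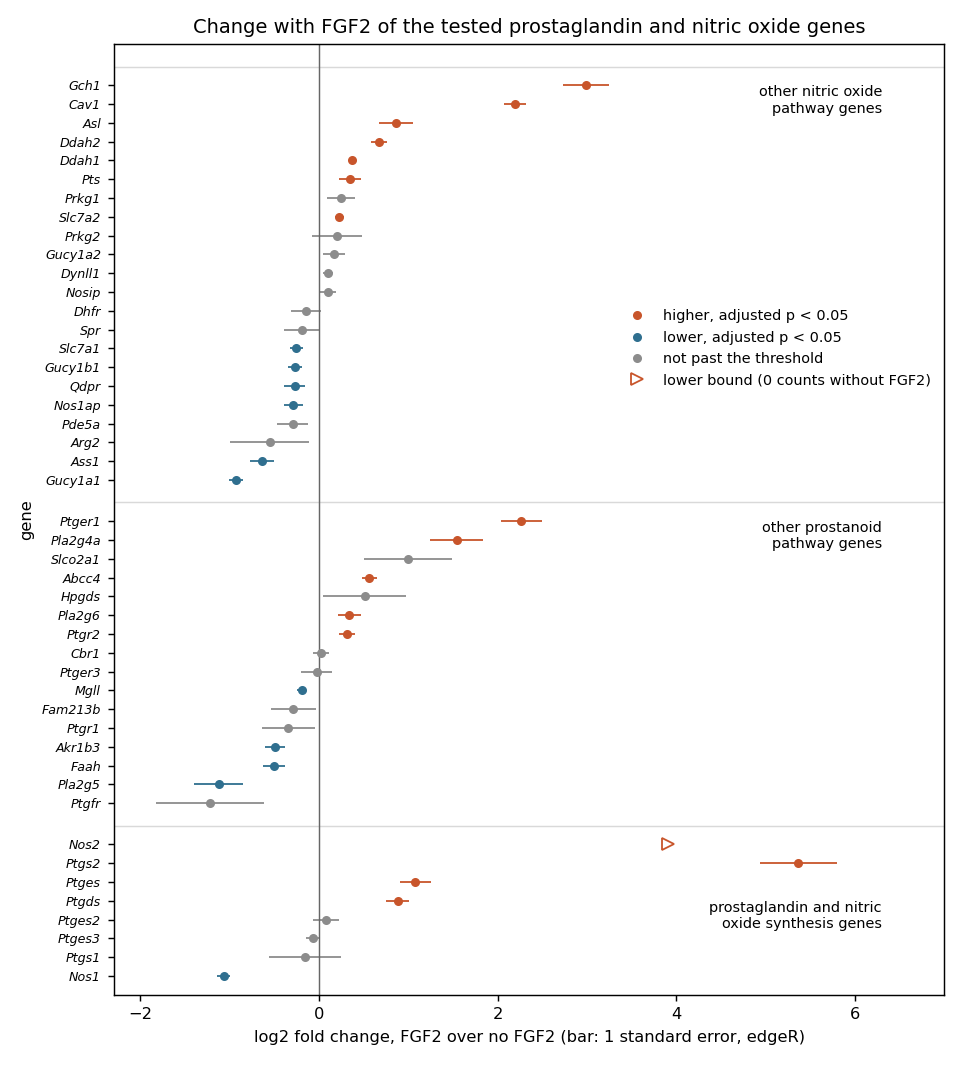
Log2 fold change, FGF2 over no FGF2, of the 8 tested synthesis genes and of the tested genes of the 2 pathway lists. Bars are 1 standard error from edgeR. For Nos2 the bound of 15.0-fold is drawn, which rests on the mean of its FGF2 libraries. Ptgs2 at 5.36, Gch1 at 2.99, Ptger1 at 2.26, Cav1 at 2.19 and the bound of Nos2 lay above 2 on this scale, and Nos1, Gucy1a1, Pla2g5 and Ptgfr were near -1, of which Ptgfr did not pass the test.

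Around the nitric oxide synthases stood 25 genes of substrate and cofactor supply, regulation and signalling. Of these 22 were tested, 7 were higher, 6 were lower and 9 did not pass, with a median log2 fold change of 0.098. The called genes were 31.8% and 27.3% of those tested, beside the 20.7% and 19.9% of all genes. Gch1, the rate-limiting enzyme for tetrahydrobiopterin, the cofactor of all nitric oxide synthases, was counted 131 and 138 times in the FGF2 libraries, against 24 and 14 times in the others. At 14.2 ± 0.287 CPM against 1.79 ± 0.701 CPM (SD, n = 2 each) it rose by a log2 fold change of 2.99 (SE 0.26, edgeR adjusted p = 8.0e-30). Qdpr, which regenerates that cofactor, was lower by a small margin (log2 fold change -0.27, edgeR adjusted p = 0.045). With the replicate number as a block Qdpr missed the threshold, with an edgeR adjusted p of 0.053, as it did without FGF2 replicate 1 (-0.22 on the log2 scale) or no FGF2 replicate 1 (-0.18). Without the expression filter it was not called either (edgeR adjusted p = 0.074).

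Cav1, the caveolar protein that binds and inhibits Nos3, rose from 11.0 to 50.2 CPM (log2 fold change 2.19, edgeR adjusted p = 1.3e-67). In the arginine cycle, Asl rose from 7.69 to 14.0 CPM (0.86 on the log2 scale, edgeR adjusted p = 2.0e-05) and Ass1, the enzyme before it, fell from 25.7 to 16.5 CPM (-0.64 on the log2 scale, edgeR adjusted p = 9.8e-06). Ddah2 belongs to a family known for clearing methylated arginines that inhibit the synthases. It rose from 35.2 to 56.1 CPM (0.67 on the log2 scale, edgeR adjusted p = 1.0e-11). Ddah1 of the same family, picked out after its values were seen, had the higher level. It rose from 619 to 801 CPM (0.37 on the log2 scale, edgeR adjusted p = 1.1e-24). The arginase Arg1 had at most 1 count in a library.

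Downstream of the synthases, Gucy1a1, an alpha subunit of the guanylyl cyclase that senses nitric oxide, fell, as Nos1 did. Its counts were 412 and 515 in the FGF2 libraries and 949 and 1046 in the others, or 48.9 ± 4.92 CPM against 93.5 ± 4.45 CPM (SD, n = 2 each), which is -0.93 on the log2 scale (SE 0.08, edgeR adjusted p = 3.0e-31). Gucy1b1, the beta subunit, which was picked out after its values were seen, fell less, by 0.27 on the log2 scale (edgeR adjusted p = 0.0015). Gucy1a2, another alpha subunit, was not called (0.16 on the log2 scale, edgeR adjusted p = 0.305). The signalling genes Prkg1 (0.25 on that scale), Prkg2 (0.20) and Pde5a (-0.30) were not called either. Nos1ap, an adaptor protein of Nos1, fell by 0.29 on the log2 scale (edgeR adjusted p = 0.016), and 171 of its exonic bases are shared with Gm7694. Nos1ap missed the threshold without FGF2 replicate 2 (-0.16 on the log2 scale) or no FGF2 replicate 1 (-0.26), and Gucy1b1 without no FGF2 replicate 2 (-0.22). The calls of Qdpr, Nos1ap, Gucy1b1 and Pla2g6 were lost with DESeq2, which kept those of Ptgs2, Ptges, Ptgds, Nos1 and Nos2.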

How the data were processed

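Whole-culture RNA of 4 libraries (2 FGF2, 2 no FGF2), prepared with a total RNA kit, was sequenced. The authors mapped reads to mm10 with HISAT2 2.1.0, kept those of mapping quality 20 or more with Samtools, and counted them per gene with HTSeq 0.11.2. They deposited raw counts per gene, one table per library, without normalization. The annotation release and strand setting are not given in the sources used here. The human cultures were not analysed here.

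Genes were named from GENCODE M21 (GRCm38, 55154 of 55421 identifiers matched), which also gave coordinates and exonic length. The 5 tallies that name no gene were left out. Reads in no feature were 43.2% to 45.9% and ambiguous reads 1.47% to 1.76% of those tallied. The test was edgeR 4.0.16 (quasi-likelihood, robust, R 4.3.3) with TMM scaling (factors 0.992 to 1.01), the filter of edgeR by group and Benjamini-Hochberg adjustment over 17144 genes, called at 0.05. The study used DESeq2, which is an alternative here (version 1.42.0). CPM used the TMM library sizes, and CPM per kb was divided by exonic length. Ratios of low counts have exact 95% intervals (SciPy 1.17.1), and intervals and the floor of 3 counts cover counting error only. Log2 ratios between genes used a pseudocount of 0.5 and exact permutation tests. Similar genes were found with BLAST 2.17.0 (100 bases, 95% identity). The main fit was tested on simulated counts in which 200 of 17144 genes were changed. Of these 200, 159 were called at a 2-fold change and 22 at a 1.2-fold change. Of the unchanged genes, 2 and 1 were called. A gene that was not called may therefore still differ by such small amounts.

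Replicates of a group differed by more than sampling noise (chi-square per degree of freedom 2.28 and 1.76) and were kept apart. The biological coefficient of variation was 3.90%. Titles number the replicates in both groups without saying that the numbers pair them.

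The 10 genes, the pathway and marker lists and the motifs were chosen with earlier results of these data known. Named were all 10 genes, the 4 largest rises and 4 largest falls called in each pathway list, and genes of the same enzymatic step or receptor family. Other names were chosen after their values were seen, and Csf1r, Cx3cr1, C1qb, Tmem119, Gfap, Cldn5, Tie1, Pdgfrb, Rgs5, Col1a1 and Col1a2 come from the marker lists. Alternatives were RLE and total count scaling, no filter, at least 10 counts in every library, DESeq2, limma-voom (limma 3.58.1), a replicate block, each library left out, and a pseudocount of 1.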

Additional observations from a re-analysis of the deposited data

How the results depend on the processing

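The 5 calls among the 10 genes (Ptgs2, Ptges, Ptgds and Nos2 higher, Nos1 lower) kept direction and threshold under RLE, total count scaling, no filter, DESeq2, limma-voom and the replicate block, and when any 1 library was left out (4 higher and 1 lower each time). A lone library left in a group was assumed to vary like the other group. With at least 10 counts required in every library, 2 genes were called higher, because Ptgs2 and Nos2 were then not tested. Where the expression filter of edgeR was used, Ptgs2 and Nos2 were tested through their FGF2 libraries only, so their calls are descriptions. The log2 fold changes ranged over the alternatives that keep all libraries from 5.20 to 5.43 for Ptgs2, 1.06 to 1.08 for Ptges, 0.86 to 0.89 for Ptgds and -1.09 to -1.06 for Nos1. With a library left out they ranged from 5.09 to 5.68, 0.97 to 1.18, 0.82 to 0.94 and -1.11 to -1.04. Total count scaling shifted the median of all genes by -0.017.

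DESeq2 called 2068 genes higher and 1931 lower in place of 3541 and 3408, 3 of the other prostanoid genes higher in place of 5, and 2 of the other nitric oxide genes lower in place of 6; the cause was not tested. With a library left out, 2642 to 3145 genes were higher and 2558 to 3054 lower, with 4 to 6 prostanoid genes higher and 3 to 4 lower, and 6 to 7 nitric oxide genes higher and 4 to 5 lower. Signs turned there for Ptgs1 (-0.71 to 0.21), Ptges2 (-0.041 to 0.20), Cbr1 (-0.13 to 0.16), Ptger3 (-0.10 to 0.041) and Prkg2 (-0.039 to 0.47), none of which was called. For Ptgs1 they were 0.21 without FGF2 replicate 1 and 0.02 without no FGF2 replicate 1, and for Cbr1 -0.13 without FGF2 replicate 1 and -0.02 without no FGF2 replicate 2. Without no FGF2 replicate 2, Ptgir was called among the prostanoid genes, as it was without the filter. Deviations of same-numbered libraries had a correlation of 0.0067 over 16814 genes, so the numbers are not shown to pair the libraries. The replicate block gave 3476 genes higher and 3338 lower, and 5 nitric oxide genes lower in place of 6. A pseudocount of 1 gave differences of 5.19, 0.99 and 6.53 for the log2 ratios of Ptgs2 to Ptgs1, Ptges to Ptges2 and Nos2 to Nos1, in place of 5.42, 1.00 and 7.51. Depth limits Ptger4, Nos3 and Ptgs1.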
